A study of Mus musculus with 16 samples.

Results

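Heat shock proteins and related chaperones were followed through 10 genes, Hspa1a, Hspa1b, Hspb1, Hsph1, Dnajb1, Hsp90aa1, Hspa8, Hspd1, Hspe1 and Hspa5, taken by symbol from the 25054 gene entries of the deposited table, where each symbol stood on 1 entry. The study examined newborn C57BL/6J pups of Man1a2 heterozygous parents, Man1a2 being an N-glycan mannosidase whose exon 2 the mutant allele lacks, and asked whether the antioxidant N-acetyl cysteine (NAC) given during gestation rescues them. Both parents drank NAC (a dose reaching 1 g/kg of body weight) or placebo (water) from 1 week before breeding until delivery. Among live pups, wild type (WT) and heterozygous ones were sampled, and among dead pups, heterozygous and null ones, each kind after NAC and after placebo. Pups were checked every 8 h for 24 h, and tissue came from dead pups once they had died and from live pups killed for harvest, so that death, hours of life and the way of dying cannot be told apart, and WT pups were live and null pups dead in every library. RNA of 3 experiments (2 for dead heterozygous pups) was pooled into 1 library per pup group, treatment and labelled tissue, lung or liver, which gave 16 libraries.

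Chaperones bind unfolded proteins and hold, fold or hand them on. In the cytosol, HSP70 proteins work with J-domain proteins, which bring them clients, and with HSP110 proteins, which renew their nucleotide, while HSP90 matures kinases and hormone receptors and small heat shock proteins hold aggregating clients. The heat shock factor HSF1 raises the inducible genes within minutes of heat, oxidants or other protein damage through heat shock elements, whereas the mitochondrial pair Hspd1 and Hspe1 and the ER chaperone Hspa5 (BiP) are needed in unstressed cells, most of all where mitochondria or secretion are abundant, as in hepatocytes.

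The tissue labels went against tissue markers in 9 of the 16 libraries, and the chaperone levels are therefore grouped by what the libraries held. The 7 libraries with at least 4446 raw CPM (counts per 1000000 counts) of the alveolar type 2 cell gene Sftpc and at most 135 raw CPM of Alb, the liver's albumin gene, were called lung-content, and 4 of these were labelled liver. The 8 libraries with at least 51003 raw CPM of Alb, which had at most 3.1 of Sftpc, were called liver-content, and 4 of these were labelled lung. The library labelled dead null placebo lung held both and is called mixed. Over 12 lung markers the summed level was 10772 to 17388 TMM CPM in lung-content libraries and 20.8 to 40.4 in liver-content libraries, and over 12 liver markers 23.5 to 232 against 157860 to 258261. Lung-content libraries had 7236865 to 11808823 counts and liver-content libraries 14115802 to 16107749, of which the ribosomal RNA symbol Rn45s took 4.05% to 26.19% and 0.85% to 6.29%. The targeted gene could not check the genotype labels, because counts by gene include the exons that the mutant allele keeps: Man1a2 was at 34.1 to 60.8 TMM CPM in the 4 libraries labelled null and at 29.6 to 75.7 in the 4 labelled WT. NAC and placebo labels could not be checked either.

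Hspa1a and Hspa1b, the stress-inducible HSP70 genes, lie side by side on the minus strand of chromosome 17 (GRCm38, 34969190 to 34972156 and 34956436 to 34959238), each with 1 exon. Of the 100-base stretches of the Hspa1a transcript 47.1% also occur in the Hspa1b transcript, and the values of these 2 genes, unlike those of the other 8, were not whole in any of the 16 libraries. How reads were divided between the copies is not given in the sources used here, so tests of their sum are given too. The exon of Hspa1a also overlaps the gene Gm20481 on the other strand, the first exons of Hspd1 and Hspe1 overlap each other on opposite strands of chromosome 1 (55077835 to 55088243 and 55088132 to 55091307), and Hspa8 (chromosome 9, 40800984 to 40810087) holds 3 small nucleolar RNA genes. The use of strand in counting is not stated, and reads of overlapping genes may not be separated. Dnajb1 lies on chromosome 8 (83608193 to 83612653), Hspb1 and Hsph1 on chromosome 5 (135887919 to 135889563 and 149614287 to 149636376), Hsp90aa1 on chromosome 12 (110690605 to 110702728) and Hspa5 on chromosome 2 (34771970 to 34777547).

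Start windows of 300 bases, 250 before and 50 after the annotated start, were found for 8 of the 10 genes in RefSeq (GRCm38.p6), the exceptions being Hsp90aa1 and Hspa8. The windows of 5 genes are printed 5′ to 3′: the inducible pair, Hspb1, Hspe1 of the mitochondrial pair and the ER chaperone Hspa5. The bearing of these sequences on the levels was not tested. Capitals mark a heat shock element core, GAANNTTC or TTCNNGAA, or in Hspa5 the ER stress response element.
Hspa1a (chr17:34972107-34972406, minus strand): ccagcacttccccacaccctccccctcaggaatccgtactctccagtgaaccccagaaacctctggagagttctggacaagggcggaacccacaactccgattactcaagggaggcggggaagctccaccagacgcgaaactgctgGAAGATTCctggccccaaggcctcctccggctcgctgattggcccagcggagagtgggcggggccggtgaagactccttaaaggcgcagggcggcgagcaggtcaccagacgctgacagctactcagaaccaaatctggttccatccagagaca
Hspa1b (chr17:34959189-34959488, minus strand): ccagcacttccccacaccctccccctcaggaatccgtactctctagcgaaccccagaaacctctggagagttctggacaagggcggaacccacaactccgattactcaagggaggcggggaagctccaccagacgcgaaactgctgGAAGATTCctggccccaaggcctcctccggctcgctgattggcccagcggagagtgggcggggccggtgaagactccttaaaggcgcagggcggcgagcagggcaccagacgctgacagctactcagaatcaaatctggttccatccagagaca
Hspb1 (chr5:135887669-135887968, plus strand): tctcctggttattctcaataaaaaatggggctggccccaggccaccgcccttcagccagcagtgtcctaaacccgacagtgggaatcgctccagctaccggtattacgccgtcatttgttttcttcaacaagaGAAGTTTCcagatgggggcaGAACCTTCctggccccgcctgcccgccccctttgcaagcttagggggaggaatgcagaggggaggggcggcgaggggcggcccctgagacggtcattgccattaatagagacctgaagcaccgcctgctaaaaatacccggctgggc
Hspe1 (chr1:55087898-55088197, plus strand): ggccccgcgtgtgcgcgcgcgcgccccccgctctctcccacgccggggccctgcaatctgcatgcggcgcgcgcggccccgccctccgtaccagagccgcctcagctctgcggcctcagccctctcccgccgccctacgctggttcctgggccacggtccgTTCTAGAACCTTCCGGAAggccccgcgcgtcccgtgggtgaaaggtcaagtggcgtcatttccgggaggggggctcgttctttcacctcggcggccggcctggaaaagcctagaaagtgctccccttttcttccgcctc
Hspa5 (chr2:34771840-34772139, plus strand): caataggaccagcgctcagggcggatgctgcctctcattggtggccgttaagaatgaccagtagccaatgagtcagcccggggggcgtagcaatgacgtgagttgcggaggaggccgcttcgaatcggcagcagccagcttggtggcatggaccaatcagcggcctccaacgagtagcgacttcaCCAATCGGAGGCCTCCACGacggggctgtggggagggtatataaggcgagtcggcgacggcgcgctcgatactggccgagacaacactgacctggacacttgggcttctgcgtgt

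The windows of the Hspa1 pair were identical at 296 of 300 bases. The 4 differences, counted from 1 at the 5′ end of the window with the Hspa1a base first, were C44T, T47C, T249G and C276T, and none lies in the core at bases 147 to 154. Both strands were searched for GAANNTTC and TTCNNGAA, which can overlap by 3 bases, and 15.1% of 32851 RefSeq start windows held at least 1 of them. Hspa1a and Hspa1b had 1 core each, Hspb1 2, and Hsph1 3 in each of its 2 windows. The single Hspe1 window and the second of the Hspd1 windows cover the same DNA from opposite strands over 285 bases. They hold the same run of 3 overlapping cores, with the 3-unit form GAANNTTCNNGAA, found in 0.603% of windows. Both Hsph1 windows hold this 3-unit form too. No core was found in the first Hspd1 window, which shares only 4 bases with the Hspe1 window. The 2 Dnajb1 windows and that of Hspa5 held no core either. The Hspa5 window holds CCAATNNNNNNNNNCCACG, the ER stress response element present in 0.119% of windows. These are matches of letters, and binding was not measured.

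**Figure D1:**
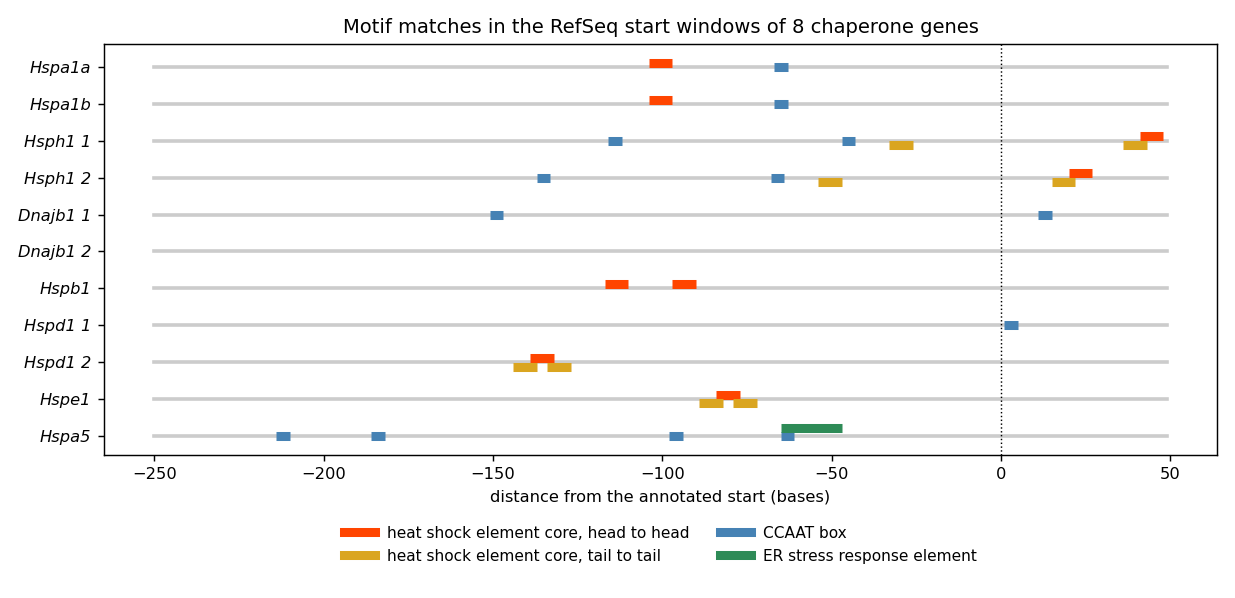
Motif matches by distance in bases from the annotated start (dotted line) in the 11 RefSeq start windows of 8 chaperone genes, with a number after the symbol where a gene has 2 windows. Coloured bars mark heat shock element cores, CCAAT boxes and the ER stress response element; Hspa1a and Hspa1b have 1 core each at the same place, Hspb1 2, Hspe1 a run of 3, and Dnajb1 none.

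Levels of single genes are given as CPM scaled by TMM. This method gives each library a scaling factor, assuming that most genes do not differ between libraries. Compared per kilobase of merged exons, the constitutive HSP70 gene Hspa8, which folds new proteins and uncoats clathrin vesicles, had the highest median of the 10 in both tissues, 183 CPM per kb in lung-content libraries (163 to 192, n = 7) and 335 in liver-content libraries (237 to 446, n = 8). In lung-content libraries it was followed by Hspa5 (83.2), Hspb1 (79.4) and Hsp90aa1 (47.4), whose ranges overlapped in this order, then by Hspd1 (25.3), Hspe1 (15.9), Dnajb1 (10.9), Hspa1b (6.94), Hspa1a (4.93) and Hsph1 (3.01). Hspb1 reached 204 in the live heterozygous NAC library, above the whole range of Hspa8. Hspa8 did not overlap Hspa5, Hsp90aa1 did not overlap Hspd1, and Hspd1 did not overlap Hspe1, while each pair of neighbours from Hspe1 down overlapped. In liver-content libraries Hspd1 (225), Hspa5 (186), Hspe1 (107) and Hsp90aa1 (106) followed Hspa8 with overlapping neighbours and stood apart from Dnajb1 (16.1), Hspb1 (5.2), Hsph1 (3.77), Hspa1b (2.63) and Hspa1a (1.44), which overlapped in turn.

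Within 1 tissue content, Hspa1a, Hspa1b and Hspb1 had the widest spread between libraries. Among lung-content libraries Hspa1a ranged 45.2-fold, Hspa1b 45.7-fold and Hspb1 9.21-fold from the lowest to the highest library, against 1.18-fold for Hspa8 and 1.28-fold for Hspd1. The SD of log2(CPM + 1) ranked Hspa1a 3, Hspa1b 4 and Hspb1 50 among 14184 genes in lung-content libraries, 1 being the widest, and Hspa8 13849. In liver-content libraries the ranges were 79.3-fold for Hspa1a, 19.3-fold for Hspa1b and 30.2-fold for Hspb1, the lowest Hspa1a library having 6 counts. The other 7 genes ranged from 1.35-fold (Dnajb1) to 2.40-fold (Hspa5) there.

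**Figure D2:**
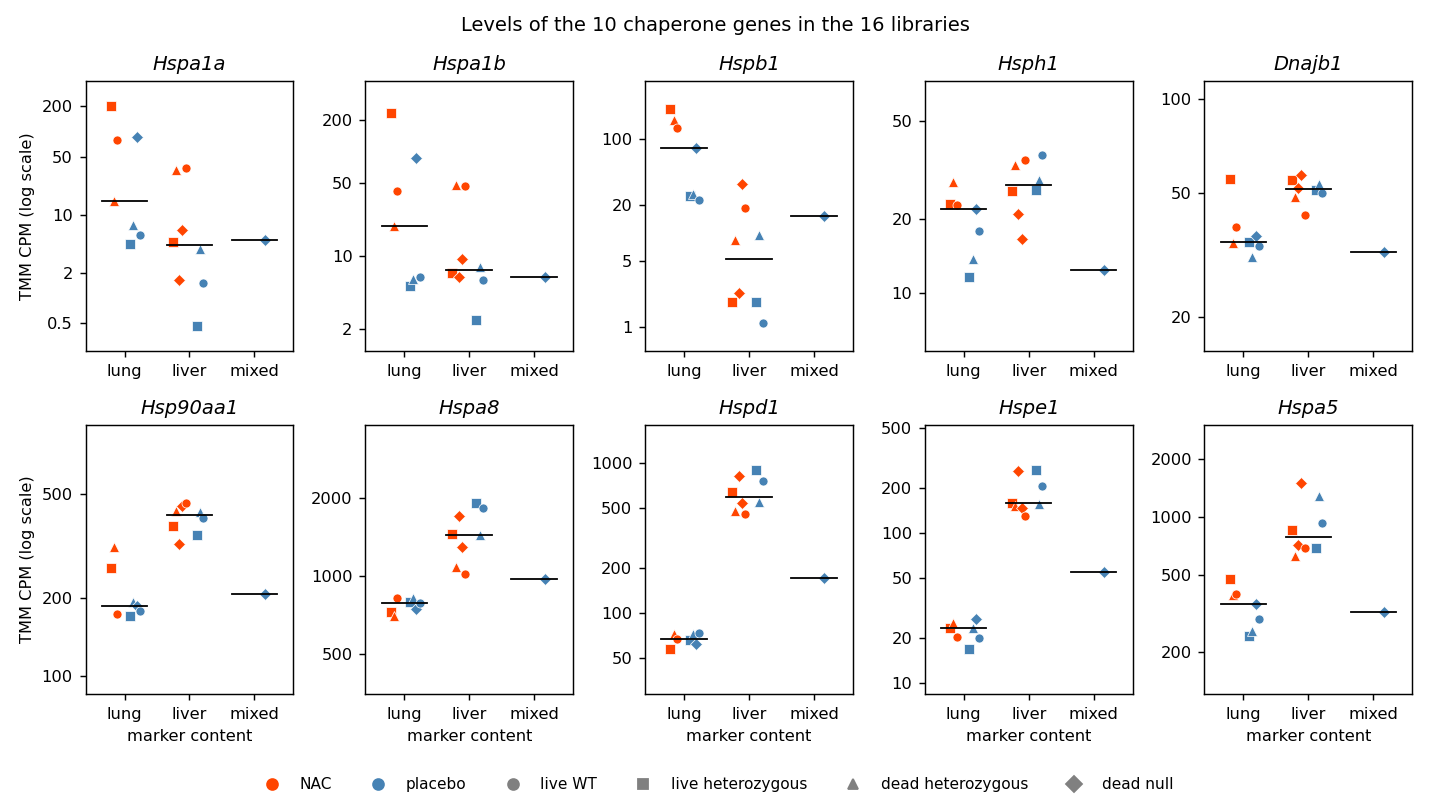
TMM CPM on a log scale for the 10 chaperone genes in the 16 libraries, by marker content, with treatment as colour, pup group as symbol and a black line at the median of each content. Hspa1a, Hspa1b and Hspb1 spread over more than the other genes within each content, while Hspd1 and Hspe1 form 2 separate bands, liver-content above lung-content.

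Lung-content and liver-content libraries differed in all 10 chaperone genes: 3 were higher in lung content and 7 higher in liver content. The test was edgeR's quasi-likelihood test with Benjamini-Hochberg adjustment over 14184 genes and an adjusted p under 0.05, fitted on the 15 libraries other than the mixed one with treatment and survival within each content. Most genes differ between these organs: 76.4% of all genes passed (36.5% higher in lung content, 39.9% lower), so that the count of 10 is close to the background. The mitochondrial chaperonin had the smallest adjusted p-values of the 10 genes. Hspd1, the HSP60 barrel, had 56.8 to 72.9 CPM in lung-content libraries and 453 to 902 in liver-content libraries, a log2 difference (lung minus liver) of -3.29 ± 0.18 (SE, n = 7 and 8, adjusted p = 1.81e-09). Hspe1, its lid, had 16.9 to 26.8 and 130 to 262 CPM, a difference of -3.05 ± 0.19 (adjusted p = 4.58e-09). The ranges of neither gene overlapped.

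Other members with non-overlapping ranges were Hspa5 (240 to 477 CPM in lung content and 629 to 1512 in liver content), Hspa8 (700 to 827 and 1021 to 1918) and Hsp90aa1, the inducible cytosolic HSP90 (170 to 314 and 321 to 463). Their log2 differences were -1.40 ± 0.21, -0.97 ± 0.16 and -0.90 ± 0.14. In all, 5 of the 10 genes had every lung-content library below every liver-content library, against 25.9% of all genes, and none had the reverse, against 23.9%. Hsph1, the HSP110 gene, and Dnajb1, the main J-domain partner of inducible HSP70, were lower in lung content by smaller amounts (-0.46 ± 0.18, adjusted p = 0.0309, and -0.45 ± 0.12, adjusted p = 0.0031), with overlapping ranges. Without TMM, on library size alone, Hspa8 and Hsp90aa1 shrank to -0.34 and -0.25, and Hsph1 and Dnajb1 turned to 0.18 and 0.17. The median of all genes then stood at 0.56 instead of -0.07. Relative to that median these genes were, in the same order, at -0.9, -0.82, -0.38 and -0.39. The Hsph1 call was also lost in 9 of the 15 fits that left out 1 library (-0.54 to -0.37, highest adjusted p = 0.0819), while the Dnajb1 call was kept in all 15.

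Hspb1, Hspa1a and Hspa1b were higher in lung content, unlike Hsp90aa1, which is also inducible and was lower. Hspb1, the small heat shock protein HSP27, had 22.8 to 210 CPM in lung-content libraries and 1.11 to 33.5 in liver-content libraries (log2 difference 3.63 ± 0.62, adjusted p = 0.000112), Hspa1a 4.46 to 202 and 0.463 to 36.7 (3.25 ± 0.94, adjusted p = 0.00622) and Hspa1b 5.15 to 235 and 2.47 to 47.6 (2.27 ± 0.83, adjusted p = 0.0232). All 3 ranges overlapped. The sum of the HSP70 pair differed by 2.67 ± 0.85 (adjusted p = 0.0115). The HSP70 calls rested on single libraries: without the library labelled dead null placebo liver, Hspa1a was at 1.83 (adjusted p = 0.0515) and Hspa1b at 0.78 (adjusted p = 0.308), and Hspa1b was also lost without the live heterozygous NAC lung library (1.34, adjusted p = 0.124) or the live heterozygous placebo library labelled lung (2.09, adjusted p = 0.061).

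**Figure D3:**
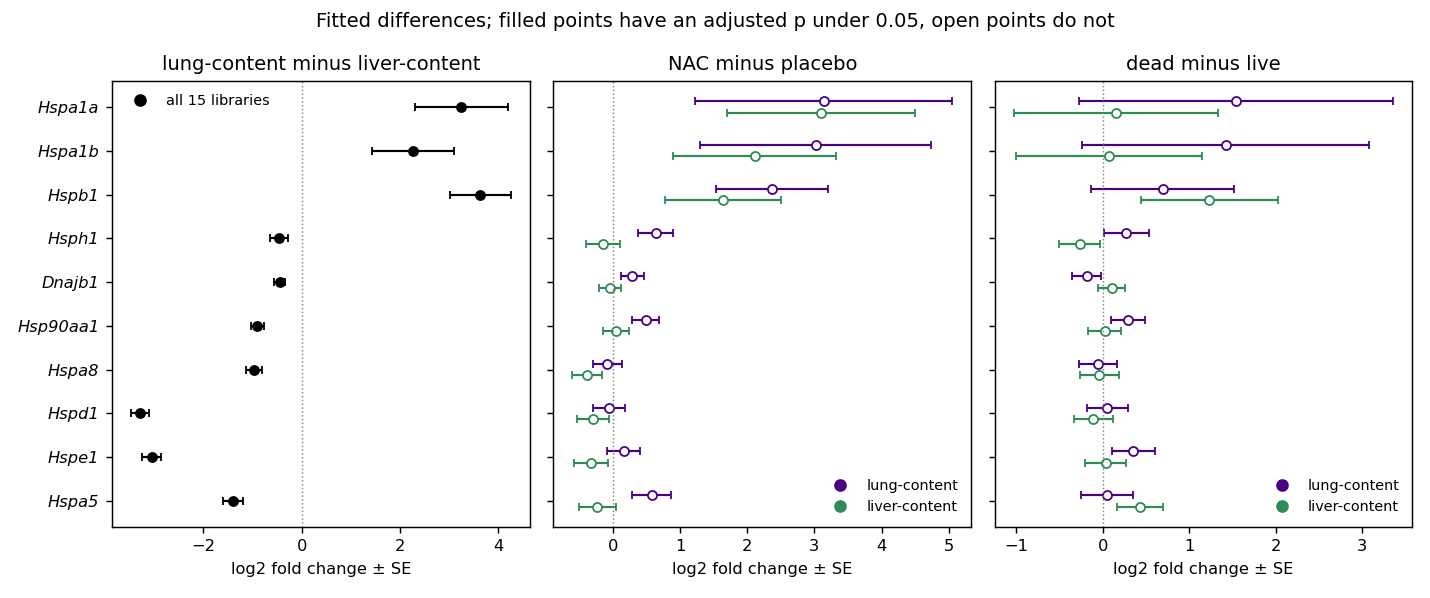
Fitted log2 fold changes with SE for the 10 chaperone genes, from left to right for lung-content minus liver-content libraries, NAC minus placebo and dead minus live pups, the last 2 within each content. Points are filled where the adjusted p was under 0.05, which holds for all 10 genes in the first panel and for none in the other panels.

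A further 72 genes with a test were other chaperones together with 3 heat shock regulators, Hsf1, Hsf2 and Hsbp1. Of these 72, 14 were higher in lung content (36.5% of all genes were), 50 lower (39.9% of all genes) and 8 not called. Their median log2 difference was -0.73 against -0.07 over all genes. All 8 subunits of the cytosolic chaperonin TRiC and all 8 other mitochondrial chaperones and proteases were lower in lung content, with medians of -1.06 and -2.15. The lowest were Clpx (-2.54), the unfoldase of the mitochondrial ClpXP protease, the ER gene Sdf2l1 (-2.46), Hspa9 (-2.42), the mitochondrial HSP70, and Dnaja3 (-2.35) and Grpel1 (-2.17), its J-protein and nucleotide exchange factor. Of 15 other ER chaperones and folding enzymes 14 were lower and 1 higher. Small heat shock proteins went the other way, as Hspb1 did: 4 of 5 tested were higher in lung content, among them Cryab (3.88 ± 0.32), Hspb2 (3.22 ± 0.39) and Hspb7 (2.78 ± 0.62), while Hspb8 was lower (-0.80 ± 0.31). Hspa12b, an endothelial HSP70 relative (3.32 ± 0.20), and Serpinh1, the collagen chaperone HSP47 and the 1 ER gene that was higher (2.53 ± 0.20), went with them. Hsf1 itself had a log2 difference of 0.06 ± 0.12 (adjusted p = 0.66), and Hsf2 was lower in lung content (-1.45 ± 0.24). Cryab, Hspb2 and Hspb7 are known from heart and muscle, and 10 cardiac and skeletal muscle markers summed to 168 to 490 CPM in lung-content libraries and 8.73 to 657 in liver-content libraries. This sum pools genes that differed in pattern. The heart genes Myh6 (48.4 to 205 CPM against 0 to 0.394) and Myl7 (15.2 to 55.4 against 0.311 to 0.808) were higher in every lung-content library. So were Tnnt2 and Tnni3. Of the same list, Myh7 (12.3 to 53.7 CPM against 0 to 23.0) and Actc1 (42.9 to 130 against 0.242 to 61.6) overlapped between the contents. The skeletal muscle genes Acta1 (3.33 to 23.9 against 3.72 to 365) and Ckm (10.1 to 20.4 against 0.242 to 116) overlapped. The part of heart and muscle RNA in these differences was not tested.

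NAC against placebo was the study's central comparison. As labelled, it sets libraries of different tissue content against each other in all 8 pairs, 7 of them lung content against liver content and 1 mixed against liver content. Between 5 and 8 of the 10 chaperone genes passed an absolute log2 fold change of 1 in a labelled pair (8, 6, 8 and 5 in the pairs labelled lung, from live WT through live and dead heterozygous to dead null pups, and 6, 6, 7 and 7 in those labelled liver), where 52.8% of all values over the 8 pairs did (47.3% to 60.6% in a pair). The sign of Hspd1 followed the content. Its log2 fold change with NAC was -3.50 and -3.99 in the pairs labelled live WT and live heterozygous lung and -2.93 in the pair labelled dead heterozygous liver, whose NAC libraries were lung-content. In the other 5 pairs, whose NAC library was liver-content, the log2 fold change was 1.66 to 3.71. With 1 library on each side there is no replicate check.

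Within lung content, NAC libraries of Hspa1a had 78.4 CPM (live WT), 202 (live heterozygous) and 14.6 (dead heterozygous), and placebo libraries 5.74, 4.46 and 7.61 in the same order, with 86.2 in dead null pups. The NAC library was thus 13.7, 45.2 and 1.92 times the placebo library of the same pup group, yet the null placebo library exceeded 2 of the 3 NAC libraries. Hspa1b had 41.6, 235 and 19.5 CPM with NAC and 6.32, 5.15, 5.98 and 86.5 with placebo, the last again in null pups. For Hspa1b the ratios were 6.57, 45.7 and 3.25, and the groups overlapped through that 1 library alone. Hspb1 had 134, 210 and 160 CPM with NAC and 22.8, 24.8, 26.2 and 81.8 with placebo. Here the ratios were 5.87, 8.46 and 6.13, and every NAC library stood above every placebo library.

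None of these differences passed the adjusted threshold. The fitted log2 fold change was 3.14 ± 1.91 for Hspa1a (adjusted p = 0.327), 3.02 ± 1.72 for Hspa1b (adjusted p = 0.297), 3.14 ± 1.82 for their sum (adjusted p = 0.303) and 2.37 ± 0.84 for Hspb1 (adjusted p = 0.126), all by edgeR's quasi-likelihood test on 3 and 4 libraries. In this comparison 1.32% of all genes passed and 0 of the 10 chaperone genes did, 3 of them with an unadjusted p under 0.05. The calls depend on the fit: with pup group in place of survival Hspa1b passed (3.25, adjusted p = 0.0444), and with lung-content libraries fitted on their own Hspb1 passed (2.36, adjusted p = 0.0199). The size of the HSP70 changes rests on few libraries. With 1 library left out Hspa1a ranged from 1.44 (without live heterozygous placebo, labelled liver) and 1.54 (without live WT placebo, labelled liver) to 4.77 (without dead heterozygous NAC, labelled liver), Hspa1b from 1.25 (without live heterozygous NAC) to 4.58 (again without dead heterozygous NAC), and Hspb1 from 2.05 to 2.85, none passing. Without the null placebo library Hspa1a was at 3.63 (adjusted p = 0.1) and Hspb1 at 2.77 (adjusted p = 0.0737). In each of these pairs of one pup group 1 library was labelled lung and the other liver: NAC was the one labelled lung in the 2 live pairs and placebo in the dead heterozygous pair, and Hspb1 and the HSP70 pair were higher with NAC in both cases. The second case is 1 pair, and the part of the tissue label in these differences was not tested. The p-values measure the spread between pooled libraries of different pup groups.

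**Figure D4:**
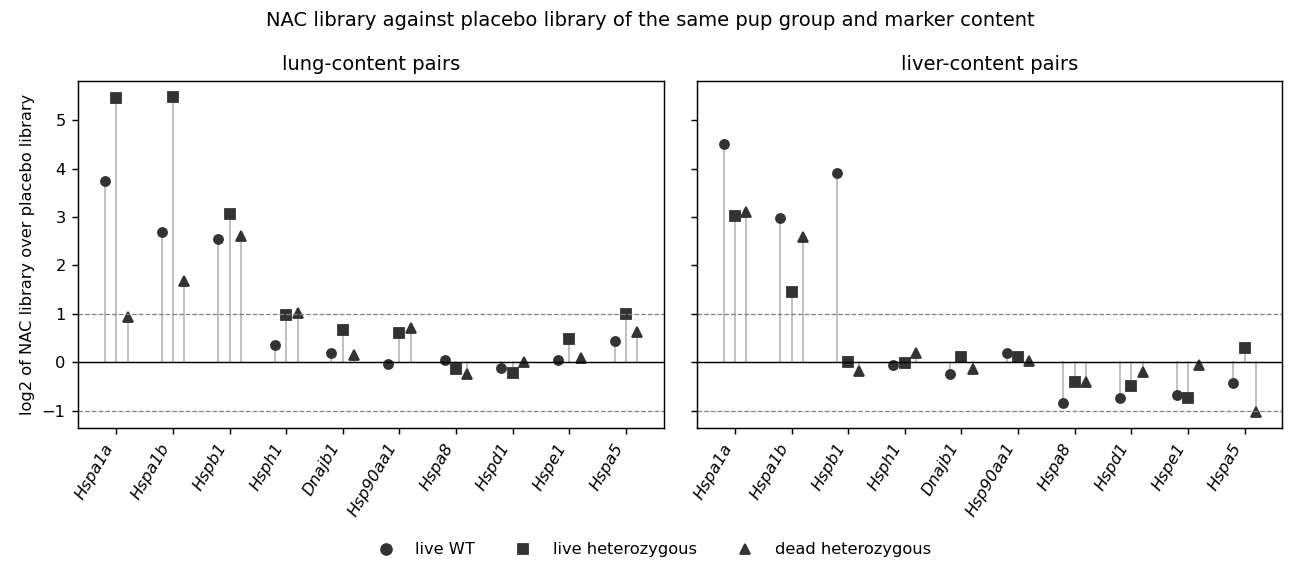
Log2 ratio of the NAC library to the placebo library of the same pup group and the same marker content for the 10 chaperone genes, 3 pairs in each content, with dashed lines at 2-fold. Hspa1a and Hspa1b are above 0 in all 6 pairs, Hspb1 in the 3 lung-content pairs and in the live WT liver-content pair by a wide margin, and Hspa8 stays within 2-fold in all 6.

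The other genes differed by smaller amounts within lung content. Hsph1 had 22.9, 23.1 and 28.2 CPM with NAC and 11.7 to 21.9 with placebo, groups that did not overlap (0.64 ± 0.26, adjusted p = 0.159). Hspa5 had 401, 477 and 394 CPM with NAC and 240 to 352 with placebo, again without overlap (0.58 ± 0.29, adjusted p = 0.245). With Hspb1, these made 3 of the 10 genes with all NAC libraries above all placebo libraries, where 14.1% of all genes had that order. Hsp90aa1 had 174, 260 and 314 CPM with NAC and 170 to 192 with placebo (0.49 ± 0.20, adjusted p = 0.161), the live WT library lying among the placebo values. Dnajb1 was at 0.29 ± 0.17, Hspe1 at 0.16 ± 0.25, Hspd1 at -0.06 ± 0.24 and Hspa8 at -0.08 ± 0.22. In all 3 lung-content pairs of one pup group, 7 of the 10 genes were higher with NAC, against 28.3% of all genes, and 2, Hspa1b and Hspb1, by at least 2-fold in each, against 1.93%. None was lower in all 3, where 31.1% of all genes were. On library size alone, without TMM, 5 were higher in all 3 pairs and 2, Hspa8 and Hspd1, lower.

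Within liver content the HSP70 pair had the same direction at lower levels. Hspa1a had 36.7 CPM (live WT), 4.69 (live heterozygous), 34.2 (dead heterozygous), 6.5 and 1.66 (both dead null) with NAC, and 1.5, 0.463 and 3.89 with placebo in the first 3 of these pup groups. The ratios within pup groups were 24.4, 10.1 and 8.80, and the lower null NAC library lay among the placebo libraries. Hspa1b had 46.6, 6.95, 47.6, 9.26 and 6.25 CPM with NAC and 5.85, 2.47 and 7.77 with placebo, with ratios of 7.96, 2.81 and 6.12. Hspb1 was 16.7 times higher with NAC in live WT pups (18.5 against 1.11 CPM) but level in live heterozygous pups (1.86 and 1.85) and in dead heterozygous pups (8.43 and 9.48). No chaperone gene had all 5 NAC libraries above or below all 3 placebo libraries, where 1.23% and 0.465% of all genes did. The 2 null NAC libraries had 33.5 CPM of Hspb1 (labelled lung) and 2.29 (labelled liver).

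By the test, 0.00% of all genes passed within liver content (0 of 14184, with 534 at an unadjusted p under 0.05, and 6 passing by DESeq2), and 0 of the 10 chaperone genes. Hspa1a had a log2 fold change of 3.10 ± 1.40, Hspa1b 2.11 ± 1.21, their sum 2.45 ± 1.23 and Hspb1 1.64 ± 0.86, each with an adjusted p of 1 by edgeR's quasi-likelihood test, and Hspa1a was the one chaperone gene with an unadjusted p under 0.05. Without the live WT NAC library (labelled liver) Hspa1a was at 2.02, Hspa1b at 1.12 and Hspb1 at 0.52, the lowest values with 1 library left out, and without the dead heterozygous placebo library (labelled liver) at 4.38, 2.68 and 2.76, the highest. Of the 10 genes, 3 were higher with NAC in all 3 pairs (Hspa1a, Hspa1b and Hsp90aa1, background 18.4%), the HSP70 pair by at least 2-fold in each (background 0.338%). Hspa8, Hspd1 and Hspe1 were lower with NAC in all 3 pairs (background 16.5%), by 1.80, 1.32 and 1.32 times for Hspa8. Their fitted changes were -0.38 ± 0.22, -0.29 ± 0.24 and -0.32 ± 0.25. Hspe1 was thus higher with NAC in the 3 lung-content pairs and lower in the 3 liver-content pairs. The difference between the contents, 0.48 ± 0.35, did not pass by the same test (adjusted p = 0.542). In liver content, 8 erythroid markers summed to 19669 and 8415 CPM in live WT and live heterozygous placebo and 8587 in dead null NAC labelled liver. Elsewhere the sum was 35870 to 46878, with 41140 and 42662 in the dead heterozygous pair. Those low-sum libraries had the highest Hspa8, Hspd1 and Hspe1, with 759 to 902 CPM of Hspd1 against 453 to 643. The part of erythroid RNA was not tested. For no chaperone gene did the NAC effect differ between contents at the threshold: the lowest adjusted p was 0.355, for Hsph1 (0.79 ± 0.36), and 0.00% of all genes passed (1951 at an unadjusted p under 0.05, and 227 passing by DESeq2).

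Of the 72 other chaperone and heat shock regulator genes, 2 passed for NAC within lung content, and both were higher. Fkbp5, an HSP90 co-chaperone of steroid receptors and a known glucocorticoid target, rose by 2.41 ± 0.44 (adjusted p = 0.041), and Clpx by 0.77 ± 0.17 (adjusted p = 0.0492). Both calls were close to the threshold: with 1 library left out, Fkbp5 (2.01 to 2.98) lost its call in 8 of 15 fits and Clpx (0.63 to 0.93) in 12 of 15, and on library size alone neither passed (adjusted p = 0.0578 and 0.12). The median of the 72 genes was 0.04, against -0.02 over all genes, and Hsf1 was at -0.07 ± 0.18. Within liver content none of the 72 passed, with a median of -0.06.

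Other genes moved with Hspb1 and the HSP70 pair. A list of 10 immediate-early genes, which many stimuli induce within minutes, includes the transcription factor genes Fos, Jun and Egr1. Its genes summed to 947, 1031, 1097 and 3007 CPM in the 4 lung-content libraries with the highest Hspb1 and Hspa1a. These were null placebo, then dead heterozygous, live heterozygous and live WT NAC. In the other 3 the sum was 474, 532 and 619. Not every gene of the list followed the sum. Egr1 was at 16.8 and 12.4 CPM in dead and live heterozygous NAC, against 20.8 to 30.7 in those 3 libraries. Ier3 was at 19.7 CPM in live heterozygous NAC, against 34.7 to 36.5 there. In liver content Egr1 was lowest (25.8 CPM) in dead heterozygous placebo. The highest sum and the highest HSP70 level were not in the same library: live WT NAC had 3007 CPM of immediate-early genes and 120 CPM of Hspa1a and Hspa1b together, live heterozygous NAC 1097 and 437 CPM. In liver-content libraries the sum was 835, 864, 1077 and 2000 CPM in dead heterozygous NAC, dead heterozygous placebo, dead null NAC (labelled lung) and live WT NAC libraries and 297 to 338 in the other 4. Those first 4 also had the 4 highest Hspb1 levels (8.43 to 33.5 CPM, against 1.11 to 2.29) and the 4 highest sums of cardiac and skeletal muscle markers (105 to 657 CPM, against 8.73 to 33.8). For the HSP70 pair the split was different, since the dead heterozygous placebo library had 11.7 CPM, close to the 11.6 of live heterozygous NAC. Rn45s took 26.19% and 19.01% of the counts in the 2 lung-content libraries with the most HSP70 transcript, but also 19.67% in the one with the least (live heterozygous placebo, 9.61 CPM). The part of immediate-early genes, muscle RNA and ribosomal RNA in the chaperone levels was not tested, and in bulk RNA a change in cell makeup and a change per cell cannot be told apart.

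**Figure D5:**
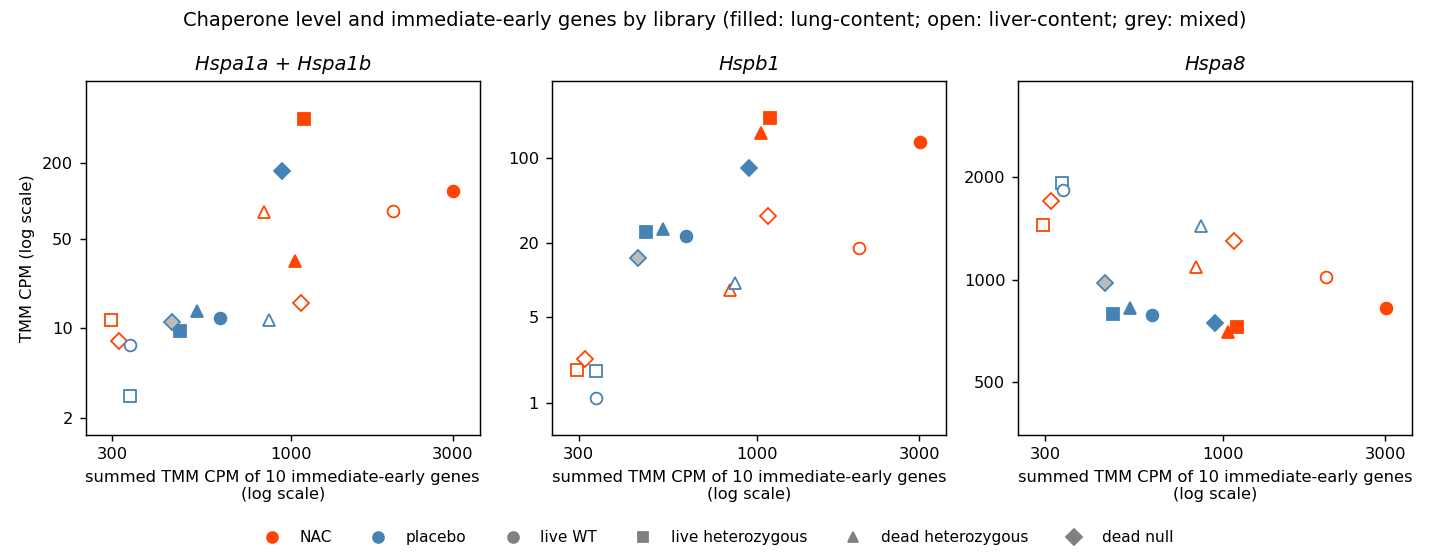
Level of Hspa1a plus Hspa1b, of Hspb1 and of Hspa8 (TMM CPM, log scale) against the summed TMM CPM of 10 immediate-early genes (log scale) in the 16 libraries, with filled symbols for lung content, open for liver content and a grey one for the mixed library. In the Hspb1 panel the libraries with immediate-early sums of 835 CPM or more hold the highest levels within each content. In the HSP70 panel this holds in lung content. In liver content the dead heterozygous placebo library (11.7 CPM of HSP70) is level with live heterozygous NAC (11.6). Hspa8 lies between 700 and 827 CPM in all lung-content libraries.

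Over the 16 libraries, the gene most like Hspa1a among the 9791 genes that averaged 10 CPM or more was its copy Hspa1b (Pearson r of log2(CPM + 1) 0.963), followed by Gramd1a (0.918) and Gse1 (0.916). Hspb1 was closest to Pvr, Tsc22d3 and Fosl2, each with r = 0.978. Tsc22d3, like Fkbp5, is a known glucocorticoid target, and Fosl2 is a member of the Fos family. Hspd1 was closest to genes of the respiratory chain and ATP synthase, Uqcrc1 (0.998), Cox7b (0.997) and Atp5b (0.996). The libraries of 1 content share most of their pattern, so these values describe the split between lung and liver content as much as any change within it.

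Survival gave no call among the chaperones. Dead and live pups were compared within each content with treatment in the fit. In lung content 0.00% of all genes passed (0 of 14184, 274 at an unadjusted p under 0.05 and 0 by DESeq2), and the 10 chaperone genes lay between -0.19 (Dnajb1) and 1.54 ± 1.82 (Hspa1a), with the sum of the HSP70 pair at 1.55 ± 1.73. The high null placebo library set the value of Hspa1a: without it the difference turned to -1.08. In liver content 0.134% of all genes passed, all of them higher in dead pups, and 0 of the chaperone genes, with Hspb1 at 1.23 ± 0.79 (adjusted p = 0.628), Hspa5 at 0.43 ± 0.27 and Hspa1a at 0.15 ± 1.18 (the sum of the pair at 0.12 ± 1.07). With 1 library left out Hspb1 ranged from 0.51 (without dead null NAC, labelled lung) to 2.82 (without live WT NAC, labelled liver), none passing. No chaperone gene had all dead libraries on one side of all live libraries in either content, where 1.46% and 1.30% of all genes were above and below in lung content and 1.37% and 1.18% in liver content.

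Among heterozygous pups alone, where genotype is held equal, Hspb1 was higher in dead than in live pups within liver content: 8.43 (NAC) and 9.48 CPM (placebo) in dead pups and 1.86 and 1.85 in live pups. In a fit of the 8 heterozygous libraries the log2 difference was 2.26 (adjusted p = 0.00393), with 771 genes passing, on 2 residual degrees of freedom. Live WT NAC pups, however, had 18.5 CPM, above both dead heterozygous libraries. In lung content dead and live heterozygous pups did not differ in the same way (160 and 26.2 CPM against 210 and 24.8). Hspa5 was highest in 2 liver-content libraries of dead pups, 1512 CPM in dead null NAC pups (labelled lung) and 1288 in dead heterozygous placebo pups, but the other null NAC library had 718 and the dead heterozygous NAC library 629, the lowest of the 8.

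Null pups could be seen in 4 libraries. The lung-content library (placebo, labelled liver) had 86.2 CPM of Hspa1a and 81.8 of Hspb1, and the mixed library (placebo, labelled lung) had 4.96 of Hspa1a, 6.27 of Hspa1b and 15.3 of Hspb1. Both are labelled dead null placebo, and the HSP70 pair summed to 173 CPM in the first and 11.2 in the second, while their contents differ as well. In the mixed library, Hspd1 (171 CPM) and Hspe1 (55.0 CPM) lay between the lung-content and liver-content ranges, as did its liver markers, whose sum was 21030 CPM. The liver-content NAC libraries had 9.26 and 6.25 CPM of Hspa1b and 540 and 812 CPM of Hspd1.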

How the data were processed

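RNA pooled from pups of each group was sequenced in 16 libraries. The authors deposited an estimated count for every gene symbol, without normalization: they trimmed adapters, aligned reads to Ensembl Mouse.B38 with the Omicsoft Sequence Aligner, and kept uniquely mapped abundances. Per library 6.3% to 8.02% of values were not whole. The design was written for counts, so the values were rounded first. Strand use and read sharing are not given in the sources used here.

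Content followed raw Sftpc (at least 1000 CPM) and Alb (under 1000, or at least 50000 CPM). edgeR 4.0.16 (R 4.3.3) fitted 15 libraries by the quasi-likelihood test with TMM, content, and treatment and survival within content (9 residual degrees of freedom), for the 14184 genes averaging 1 CPM or more. Benjamini-Hochberg adjusted p-values under 0.05 passed. Labelled pairs got a fold change only (prior count 0.125, absolute log2 of at least 1). On data simulated for NAC within lung content, 200 of 200 genes changed 8-fold were recovered, with 16 others called among 14184. The simulation gave all genes the same spread (biological coefficient of variation 0.283). It therefore cannot show what was detectable for Hspa1a and Hspa1b, which ranked 3 and 4 in spread within lung content. Named were the 10 genes, the 5 other chaperones with the largest called difference each way, and for Hspa1a, Hspb1 and Hspd1 the 3 genes with the highest r. Hspb8, Hsf1, Hsf2 and the single muscle and immediate-early genes were named after their values were seen. The genes and lists were chosen with earlier results of these data known. Start windows are RefSeq's, positions GENCODE's. Alternatives were scaling, the filter, DESeq2 1.42.0, pup group for survival, separate fits, the mixed library added, heterozygous libraries only and each library left out; counts without Rn45s and unscaled pairs were added after seeing the data. Python 3.11.15, pandas 2.3.3 and numpy 2.4.6 were used. Counting error only is covered by depth.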

Additional observations from a re-analysis of the deposited data

Results flagged for a closer look

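In 20 groups of 4 or 5 libraries (10 genes, lung-content placebo and liver-content NAC), 5 had a library far from the others by Dixon's criterion, which chance gives in about 1 group in 20. The dead null placebo library labelled liver gave 3 of them among lung-content placebo libraries: Hspa1a 86.2 CPM (others 4.46 to 7.61), Hspa1b 86.5 (5.15 to 6.32) and Hspb1 81.8 (22.8 to 26.2). Among liver-content NAC libraries, Hspe1 had 256 CPM in the dead null library labelled liver (others 130 to 158), and Hspa5 had 1512 CPM in the dead null library labelled lung (others 629 to 855).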

How the results depend on the processing

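The labels number no replicates, so libraries were not paired by replicate number. The fit with pup group for survival paired NAC and placebo libraries of one pup group within a content. Null pups, with placebo alone in lung content and NAC alone in liver content, then do not enter the NAC fold change. Of 777 alternative values for single genes, 738 kept direction and side of the threshold. For a gene not called in the main fit this means only the same sign and again no call. Fits that left out a library of the other content are among them and bear little on changes within 1 content. The exceptions follow, and their cause was not tested. Between contents, 6 chaperone genes instead of 10 passed on library size alone. Hsph1 and Dnajb1 then reversed to 0.18 and 0.17, and Hspa8 and Hsp90aa1 shrank to -0.34 and -0.25. Called genes were then 69.7% higher in lung content instead of 47.7%. Leaving out 1 library kept 8 to 10. For NAC in lung content, 0 chaperone genes passed, but 1 with pup group for survival and 1 with contents fitted apart. Of all genes 187 passed, against 7 on library size alone, 369 with pup group, 1878 fitted apart, 489 with the mixed library, 1344 by DESeq2 and 0 (without live heterozygous NAC, labelled lung) to 952 (without dead null NAC, labelled liver) when 1 library was left out, with 1 gene left in 5 other cases, and 899 without the dead null NAC library labelled lung and 849 without dead null placebo, labelled liver. On library size alone all 7 were higher, against 65.8% of the 187, and the median of all genes was -0.24. Hspe1 reversed to -0.07 on library size alone and -0.05 with the mixed library, and Hspd1 ranged from -0.16 to 0.02 with 1 library left out. In 3 of 3 lung-content pairs, 2 genes instead of 0 were lower with NAC without scaling. For NAC in liver content, 6 genes passed by DESeq2 and 0 to 1 with 1 library left out; Hsph1 reversed to 0.04 with pup group, Dnajb1 ranged from -0.13 to 0.05 and Hsp90aa1 from -0.04 to 0.16. The difference in NAC effect called 1 gene on library size alone, 12 with pup group, 227 by DESeq2 and 0 to 84 (without dead null placebo, labelled liver) with 1 library left out. For survival in lung content, heterozygous libraries alone called 2 genes, with Hspa1a at -1.79 and Hspb1 at -0.17, and Hspa1a ranged from -1.08 to 3.19 with 1 library left out. In liver content, 19 genes became 0 fitted apart, 9 with the mixed library, 65 by DESeq2, 771 (and 1 chaperone gene, Hspb1) among heterozygous libraries, and 1 to 260 (without dead null NAC, labelled liver) with 1 left out, and Hspa1a ranged from -0.80 to 1.74. The difference in survival effect, 1 gene, became 0 with the mixed library, 24 (and 1 chaperone gene, Hspb1) among heterozygous libraries, 7 by DESeq2 and 0 to 2 with 1 left out. The lowest HSP70 value, 6 counts, and the 1 library per label limit precision.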
